A study of Mus musculus with 4 samples.

Results

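Bcl11b, Gata3, Satb1 and Myb encode transcription factors that commit blood progenitors to the T cell lineage, and the open chromatin around these 4 genes was compared between immature γδ thymocytes with and without the transcription factor c-Maf. Peaks of the 4 deposited lists that overlapped by at least 1 bp on chromosomes 1 to 19 and X were merged into regions. A region belonged to one of the 4 genes when that gene's body was the nearest protein-coding gene body and lay within 100 kb. This rule kept 184 of 171490 regions, 65 for Bcl11b, 38 for Gata3, 40 for Satb1 and 41 for Myb. Of all regions, 159321 lay within 100 kb of some protein-coding gene body.

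Open chromatin was mapped by Omni-ATAC-seq, in which Tn5 transposase cuts accessible DNA and tags the fragments for sequencing. Both genotypes carried Il7rCre, a Cre recombinase driven by Il7r and so active in lymphoid precursors and their progeny. The 2 control libraries were Maf+/+ Il7rCre (WT) and the 2 mutant libraries Maf fl/fl Il7rCre (KO), so the mutant cells differed by the floxed Maf alleles on which the shared Cre acts. Each library held cells pooled from fetal thymi at embryonic day 17 to 18, on C57Bl/6 after 5 backcross generations, with 15 to 17 × 1000 sorted cells as input. Cells had been sorted as CD4- CD8- CD3e+ TCRgd+ CD24+ CD45RBlo, an immature γδ stage. The libraries carry the numbers 1 and 2 in each genotype, but no label says that they came from separate litters or pools. The p-values therefore measure only the spread between these libraries, which may be technical. In bulk libraries a site open in fewer cells and a site less open in each cell cannot be told apart.

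As background, T lineage commitment proceeds in the thymus under Notch signals, which induce TCF1 and GATA3. GATA3 is a zinc finger factor required for the earliest T cell precursors. MYB is a DNA-binding activator of progenitor and thymocyte programs. BCL11B, a zinc finger factor switched on at commitment, shuts progenitor and natural killer genes and keeps T cells in their lineage, and SATB1 organises chromatin loops and enhancers in thymocytes. γδ T cells pass through the same early steps before c-Maf, a basic leucine zipper factor, takes part in the program of the γδ cells that make IL-17.

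All 4 genes lie on the minus strand, and the 250 bases before their listed starts are shown because the libraries have peaks in or beside these stretches. The sequences come from RefSeq promoter windows of GRCm38.p6, which reach from 250 bases before to 50 bases after a start, and all 4 genes were matched by symbol. Capitals mark matches, on either strand, to the core TGCTGA of the Maf response element, the AP-1 site TGAGTCA, the GATA site GATAA, the TCF1 site CTTTGA and the RUNX site TGTGGT, none of which lies inside another. Satb1 has 5 listed starts, of which the 5′-most and the one with the most strongly ranked peak are printed.
Bcl11b, chr12:108003415-108003664: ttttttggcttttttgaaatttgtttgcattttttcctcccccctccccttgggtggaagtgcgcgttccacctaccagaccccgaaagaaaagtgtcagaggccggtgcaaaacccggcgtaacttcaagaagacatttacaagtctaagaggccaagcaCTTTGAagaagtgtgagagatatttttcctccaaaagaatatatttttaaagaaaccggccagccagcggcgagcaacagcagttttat
Gata3, chr2:9878601-9878850: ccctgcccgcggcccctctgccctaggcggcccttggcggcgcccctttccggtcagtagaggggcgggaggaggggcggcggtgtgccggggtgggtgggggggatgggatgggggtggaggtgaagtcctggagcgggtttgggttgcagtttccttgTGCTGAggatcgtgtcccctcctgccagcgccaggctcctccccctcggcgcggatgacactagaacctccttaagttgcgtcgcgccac
Satb1, chr17:51833291-51833540: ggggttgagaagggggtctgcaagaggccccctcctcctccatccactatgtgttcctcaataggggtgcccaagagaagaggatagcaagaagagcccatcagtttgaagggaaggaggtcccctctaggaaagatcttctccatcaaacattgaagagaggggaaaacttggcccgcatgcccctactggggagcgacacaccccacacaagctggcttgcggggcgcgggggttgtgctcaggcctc
Satb1, inner start, chr17:51826589-51826838: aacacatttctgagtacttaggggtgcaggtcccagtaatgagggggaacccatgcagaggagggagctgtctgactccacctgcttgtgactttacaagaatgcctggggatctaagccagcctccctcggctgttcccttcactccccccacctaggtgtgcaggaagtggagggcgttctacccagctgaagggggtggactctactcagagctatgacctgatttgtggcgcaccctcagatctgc
Myb, chr10:21160985-21161234: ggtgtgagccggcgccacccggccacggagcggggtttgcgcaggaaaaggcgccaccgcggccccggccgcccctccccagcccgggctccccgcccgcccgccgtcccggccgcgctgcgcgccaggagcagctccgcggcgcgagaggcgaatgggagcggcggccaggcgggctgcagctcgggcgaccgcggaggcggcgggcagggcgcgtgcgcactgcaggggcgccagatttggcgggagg
In the Gata3 window TGCTGA began 90 bases before the start, and 19.5% of all 32619 windows hold this motif. In the Bcl11b window CTTTGA began 89 bases before the start, a motif held by 16% of windows. None of the 5 motifs was found in the windows of the printed Satb1 and Myb starts. Over all windows, 5.22% hold the AP-1 site, 25.4% the GATA site and 16.6% the RUNX site. The ETS core GGAA, found in 96% of windows, was left in lower case. Over the whole windows, with the last 50 bases that are not printed, it occurred 5 times at Bcl11b and 2 times at Gata3. At Satb1 it occurred 5 times at the 5′-most start and 4 times at the inner start, and at Myb 1 time.

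WT 1, WT 2, KO 1 and KO 2 held 102718, 132179, 130935 and 120141 peaks, and all 4 lists stopped at q = 0.1. Read totals were not analysed here, so a list's length is the only measure of depth, and the shortest list was WT 1. At the Maf gene itself, with 2 kb on either side, the highest −log10 q was 89.9 (WT 1) and 141 (WT 2) against 3.17 (KO 1) and 6.80 (KO 2). Which stretch of Maf the floxed allele spans is not stated in the sources used here, and closed chromatin and deleted DNA cannot be told apart there. Across the 78650 regions called in all 4 libraries, within-library ranks correlated at 0.847 to 0.910, and WT 2 correlated more closely with KO 2 (0.899) than with WT 1 (0.877). Peaks lay in the promoter windows of 6 of 6 T cell markers with a listed start in every library, the CD3 genes Cd3e, Cd3d and Cd3g among them. Windows of 0 of 3 B cell, 0 of 3 erythroid and 1 of 3 myeloid markers (Itgam) had a peak. Of 5 markers of conventional αβ thymocytes, the 2 with a listed start, Cd8a and Rag1, had a peak in every library. The others, Cd4, Cd8b1 and Trac, had no listed start and could not be judged. Of 3 stromal and epithelial markers, Epcam had a peak in KO 2 alone.

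**Figure D1:**
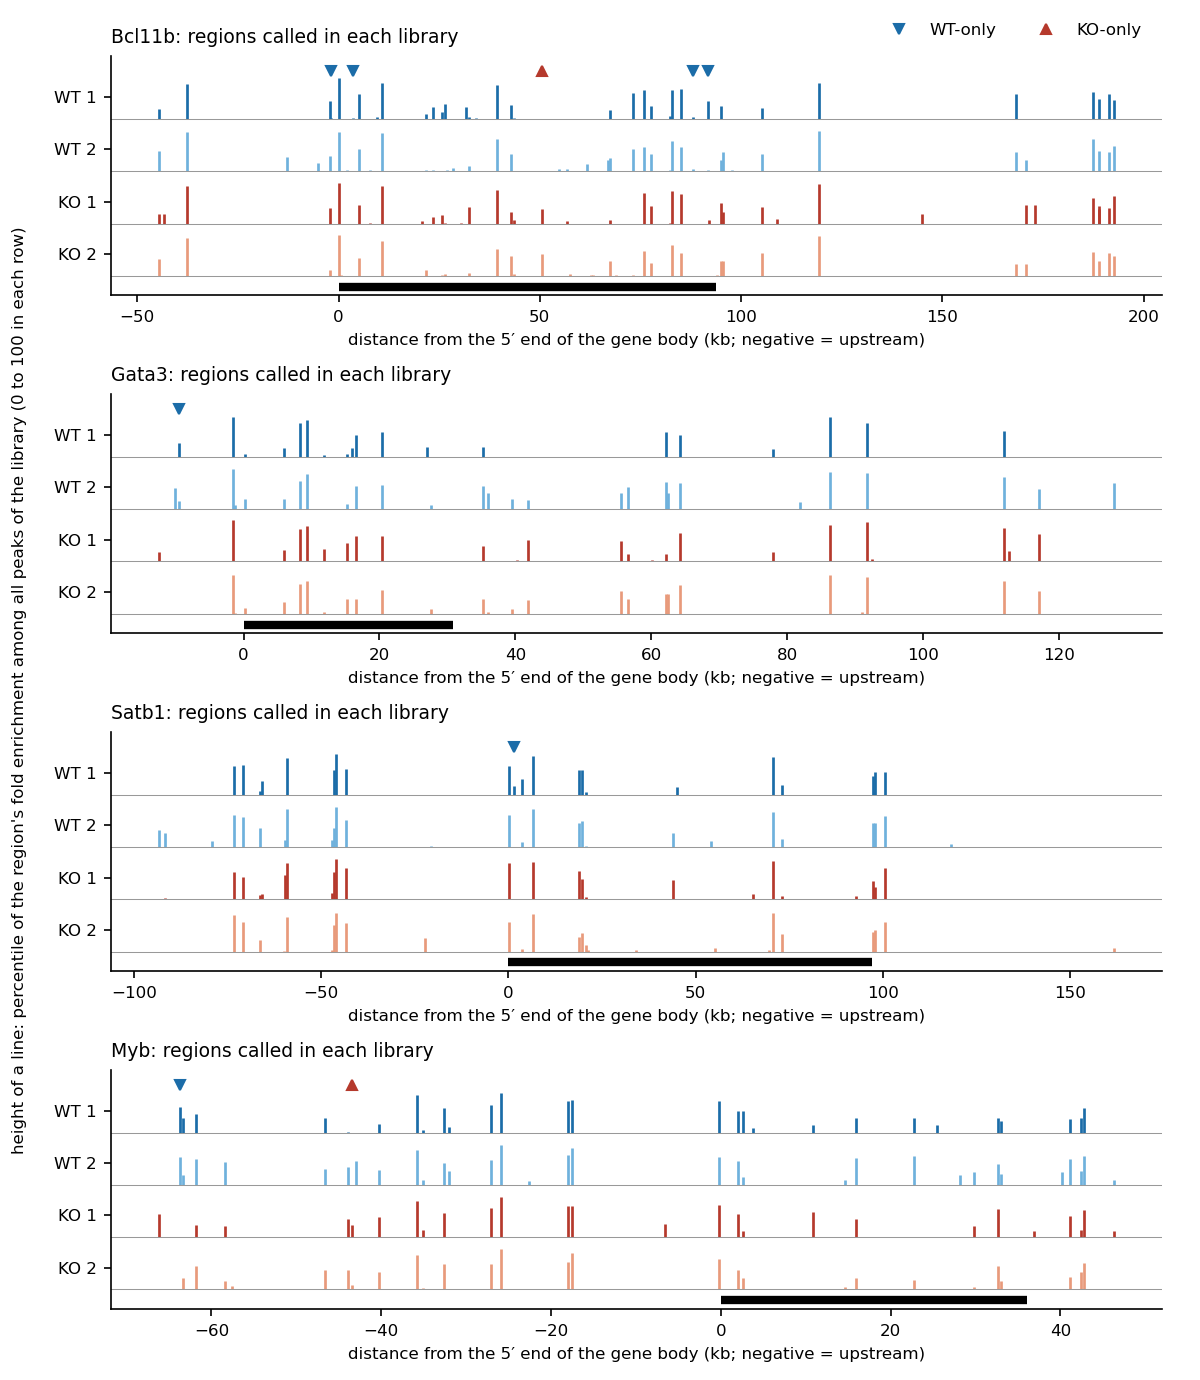
Regions within 100 kb of each gene, one row per library. The x axis is the distance from the 5′ end of the gene body (black bar) in kb, and the height of each line is the percentile of the region's fold enrichment among all peaks of that library, from 0 to 100. Triangles mark the 7 regions found in the 2 WT libraries alone and the 2 found in the 2 KO libraries alone, and most tall lines recur in all 4 rows.

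Each of the 4 genes kept open sites over or beside its start, inside it and around it with and without c-Maf. Of the 184 regions, 71 were called in all 4 libraries, 22 at Bcl11b, 14 at Gata3, 17 at Satb1 and 18 at Myb. That was 38.6% of the regions, beside 46.7% of all regions within 100 kb of a protein-coding gene. Another 25 were called in 3 libraries and 65 in 1 library, of which 27 lay at Bcl11b. The numbers of called regions were 105 and 133 in WT 1 and WT 2, and 115 and 117 in KO 1 and KO 2, so the KO values lay between the WT values. The peaks covered 22364, 30899, 23603 and 27078 bp in WT 1, WT 2, KO 1 and KO 2.

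Regions called in both libraries of one genotype and in neither of the other were few. Of 119 regions called in at least 2 libraries, 7 were called in WT alone (WT-only, 5.88%, beside 2.9% of the 114921 such regions near all protein-coding genes). In KO alone (KO-only) there were 2 (1.68%, beside 4.19%). Among 38 such regions of Bcl11b 4 were WT-only and 1 KO-only, at Gata3 1 and 0 of 27, at Satb1 1 and 0 of 24, and at Myb 1 and 1 of 30. Pairs of 1 WT and 1 KO library shared 14 further regions, with 6 of them at Gata3. There are 4 such mixed pairs and 2 pairs within a genotype. Near all protein-coding genes, mixed pairs shared 12918 regions, beside 3329 WT-only and 4819 KO-only ones. With 2 libraries against 2, an exact permutation test cannot give a 2-sided p below 0.333, so these counts carry no test.

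**Figure D2:**
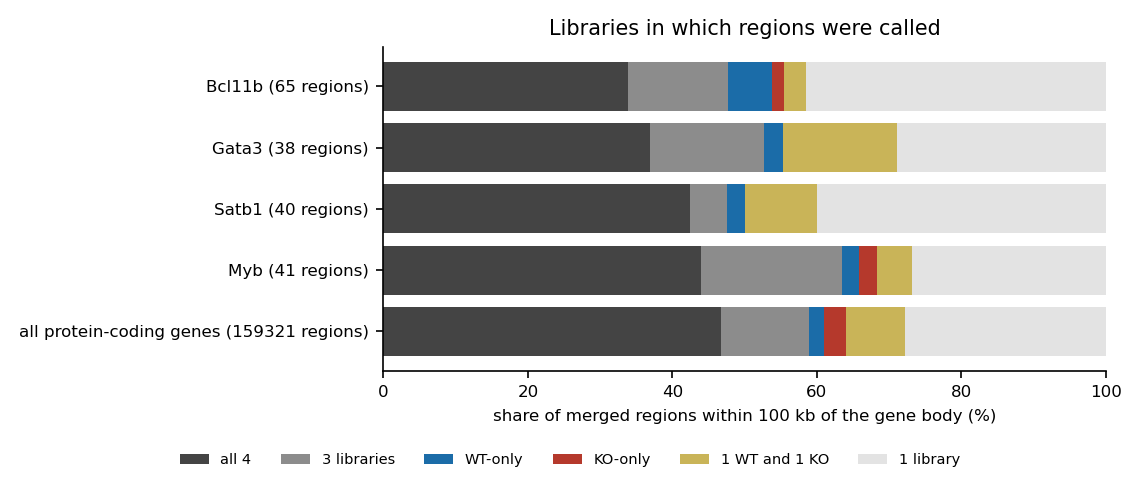
Share of merged regions (x axis, %) within 100 kb of each gene by the libraries that called them, with all protein-coding genes in the lowest bar. Regions called in all 4 libraries make up 33.8% at Bcl11b, 36.8% at Gata3, 42.5% at Satb1 and 43.9% at Myb, and the WT-only and KO-only slices are narrow in every bar.

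Bcl11b had its most significant peak at the 5′ end of the gene body, in all 4 libraries. The region at chr12:108003908-108004323, 0.494 kb upstream of the listed start, reached −log10 q values of 126 (WT 1), 216 (WT 2), 151 (KO 1) and 201 (KO 2). Its fold enrichment stood at percentile 93.1, 85.2, 90.3 and 89.3 of the regions called in all 4 libraries, in the order WT 1, WT 2, KO 1 and KO 2, which is used for all values below. The genotypes overlapped. In the printed promoter window itself only KO 2 had a peak, at chr12:108003571-108003698, with a −log10 q of 4.71. The next highest shared region lay 25.4 kb downstream of the gene, at chr12:107884480-107884965, with percentiles of 78.6, 88.9, 83.4 and 85.0, again without a separation of the genotypes.

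The 4 WT-only regions of Bcl11b were each low in at least 1 of the WT lists. Inside the gene, chr12:107912215-107912320 reached −log10 q values of 7.87 (WT 1) and 2.39 (WT 2), at percentiles 42.1 and 3.28 among all peaks of these lists. The other 3, at chr12:107915984-107916218, chr12:108000577-108000728 and chr12:108005973-108006077, reached percentiles of 0.408 to 4.26. The last of them lay 1.83 kb upstream of the gene body, and its fold enrichment was 3.02 (WT 1) and 2.56 (WT 2). The lowest 1% of the KO 1 and KO 2 lists ended at a fold of 2.95 and 3.05, and their lowest folds were 1.65 and 1.80. Fold is a value within a library and is not directly comparable between lists. Whether the floor of the KO lists had a part in the missing KO calls was not tested. The KO-only region, chr12:107953463-107953602 inside the gene, was stronger, with −log10 q values of 6.27 (KO 1) and 14.7 (KO 2) and percentiles of 33.9 and 49.2. When a call needed a −log10 q of at least 5, 0 of 27 Bcl11b regions were WT-only and 2 KO-only (7.41%), beside 2.25% and 3.89% of regions near all protein-coding genes. With lists cut to equal length the counts were 0 and 1 of 31 (3.23%), beside 4.06% and 3.71%. At these numbers of regions the counts were near the background.

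Among its 22 shared regions, Bcl11b ranked higher in both KO libraries than in both WT libraries at 1 and lower at 3. Over all 78650 regions called in all 4 libraries, 18.6% were higher in this sense and 18.1% lower. The higher one was at chr12:107898945-107899169, 11.2 kb downstream, with percentiles of 13.8, 13.7, 14.9 and 29.9. The largest of the lower ones was at chr12:107816575-107816829, 93.6 kb downstream, with 50.8, 57.1, 33.7 and 34.8. At that site both WT libraries stood at the middle of the ranking and both KO libraries well below it. In the limma moderated test on normal scores, the ranks turned into values of a normal distribution, the difference KO minus WT was −0.50 ± 0.23 (SE, limma adjusted p = 0.629). The median percentile of the 22 regions was 38.6, 22.9, 20.2 and 26.7, which put KO lower by 7.26 points on average, with overlapping genotypes (exact permutation p = 0.667). Without WT 1 that difference was −0.718.

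Gata3 was open at its start and upstream of it in every library. The region over the listed start, chr2:9878340-9878835, overlaps the printed stretch and stood at percentiles 80.9, 66.3, 69.1 and 62.7. These percentiles overlapped between genotypes. The 4 −log10 q values were 99.4, 190, 97.7 and 122. Ranked by −log10 q within each library, the region stood at percentiles 94.0, 94.7, 91.2 and 92.0, lower in both KO libraries. In that ranking 20.7% of shared regions near all protein-coding genes were lower in both KO libraries. The highest ranked region lay upstream, at chr2:9889306-9889685, 1.35 kb beyond the 5′ end of the gene body and 10.7 kb from the listed start, with percentiles of 90.1, 88.1, 90.8 and 83.2. The next was 55.2 kb downstream, chr2:9801431-9801924, with 89.6, 76.7, 71.3 and 82.2. Its only WT-only region, chr2:9897349-9897464, 9.40 kb upstream of the gene body, was weak, with −log10 q values of 4.56 and 3.87. When calls needed a −log10 q of at least 5, none was WT-only at Gata3 and 1 was KO-only.

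The 2 shared regions with an unadjusted p under 0.05 for rank were both at Gata3. Inside the gene, 5.61 kb downstream of the listed start, chr2:9872607-9872989 stood at percentiles 1.92 and 2.36 in WT and 17.0 and 14.8 in KO. Both KO libraries thus ranked this weak site above both WT libraries, by 1.03 ± 0.23 normal score units (SE, limma adjusted p = 0.338). At chr2:9825744-9825997, 31.1 kb downstream, the order was the reverse, with percentiles of 45.6 and 38.8 in WT and 4.84 and 22.6 in KO. That difference was −1.01 ± 0.34 (SE, limma adjusted p = 0.476). Across the 14 shared regions of Gata3, 4 ranked higher in both KO libraries (28.6%) and 1 lower (7.14%). Over all shared regions these shares were 18.6% and 18.1%. The other 3 higher ones of Gata3 lay downstream, at chr2:9775732-9776513, chr2:9796066-9796310 and chr2:9823638-9824004, and their percentile differences were 8.63 to 10.6 points. The median percentile of the locus was 46.1, 38.1, 39.8 and 42.3 (exact permutation p = 1), and its KO minus WT difference of −1.05 turned to 7.19 with lists of equal length.

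Satb1 was open at its 5′-most starts, at an inner start and at sites upstream of the gene in all 4 libraries. The region chr17:51832568-51833485, over the 5′-most start and the start next to it, had percentiles of 55.5, 57.2, 73.8 and 51.8. The inner start lay under chr17:51826439-51826823, with percentiles of 86.1, 80.7, 78.0 and 78.9, where both KO libraries ranked below both WT libraries by 4.94 points. The highest ranked region was 46.0 kb upstream of the gene, chr17:51879256-51879540, with 92.3, 88.1, 86.5 and 81.4. It too ranked lower in both KO libraries, by 6.27 points (limma adjusted p = 0.845). Directly over the 3′-most pair of starts only KO 2 had a peak, chr17:51812012-51812235, with a −log10 q of 3.37. A weak region 0.217 kb upstream of the nearer of these starts, chr17:51812401-51812852, was called in all 4 libraries. Its percentiles were 2.09, 0.458, 1.32 and 4.81. The WT-only region of Satb1, chr17:51831648-51831802, lay inside the gene 0.845 kb downstream of a listed start, with −log10 q values of 4.98 (WT 1) and 2.85 (WT 2).

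Of the 17 shared regions of Satb1, 6 ranked lower in both KO libraries and 0 higher, that is 35.3% beside the 18.1% of all shared regions. The 6 were 2 upstream, 2 inside and 2 just downstream of the gene. The largest difference was inside the gene at chr17:51813110-51814096, with percentiles of 45.8, 35.3, 22.0 and 20.6. Its summed peak widths were 971 and 956 bp in WT and 733 and 681 bp in KO, where KO 1 had 2 peaks and the other lists 1 each. The rank difference there was −0.55 ± 0.24 normal score units (SE, limma adjusted p = 0.594). The remaining 11 regions overlapped between genotypes, and 8 of the 17 had a higher mean in KO, so most of the locus was without a common direction. Its median percentile was 45.8, 40.3, 40.3 and 47.5, a KO minus WT difference of 0.856 (exact permutation p = 0.667), whereas the median of the region by region differences was −4.94.

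Myb was open across its start and at a series of upstream sites. The start region, chr10:21160664-21161792, had percentiles of 64.7, 40.7, 56.7 and 53.4 and was the widest of the named regions, with summed peak widths of 919, 1121, 760 and 673 bp. It was made of 2, 1, 3 and 2 peaks in the 4 lists, and the difference in summed width was −0.51 ± 0.18 on the log2 scale (SE, limma adjusted p = 1). From the first to the last base the peaks spanned much the same stretch in every list, chr10:21160738-21161792 in WT 1 and chr10:21160713-21161784 in KO 1. The highest ranked region lay 25.8 kb upstream, chr10:21186763-21186995, with percentiles of 87.4, 85.8, 87.9 and 90.2, and was followed by chr10:21196632-21196919, 35.6 kb upstream, with 81.9, 65.7, 72.3 and 69.2. At the first of these both KO libraries ranked above both WT libraries, by 2.47 points.

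Myb held the strongest WT-only region of the 4 genes. It lay 63.6 kb upstream, chr10:21224572-21224743, with −log10 q values of 10.3 (WT 1) and 22.0 (WT 2) and percentiles of 58.8 and 65.1 among all peaks of these lists. This site alone among the 7 WT-only regions was still WT-only when calls needed a −log10 q of at least 5. A KO-only region lay nearer, 43.3 kb upstream at chr10:21204275-21204597, with a −log10 q of 4.52 and 3.23. Of the 18 shared regions, 4 ranked higher in both KO libraries (22.2%) and 2 lower (11.1%). Over all shared regions these shares were 18.6% and 18.1%. The largest of the higher ones at Myb was inside the gene, chr10:21128189-21128455, with percentiles of 19.6, 21.9, 44.2 and 32.5, and the largest of the lower ones at chr10:21144969-21145222, with 19.6, 38.3, 17.9 and 10.3. Neither passed the test (limma adjusted p = 0.640 and 0.716). The locus median was 37.4, 33.4, 30.0 and 32.5, lower in both KO libraries by 4.15 points on average, and its exact permutation p of 0.333 is the smallest this design allows.

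**Figure D3:**
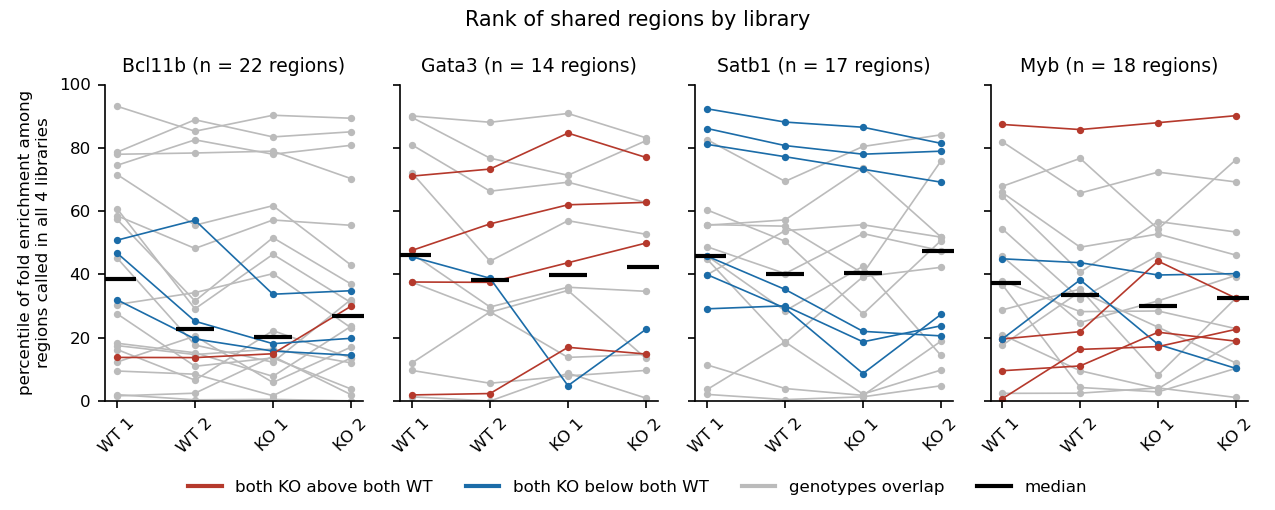
Percentile of fold enrichment (y axis, 0 to 100, among the 78650 regions called in all 4 libraries) of each shared region in each library (x axis). Red lines rank higher and blue lines lower in both KO libraries than in both WT libraries, grey lines overlap, and black bars are medians. Satb1 has 6 blue and 0 red lines and Gata3 4 red and 1 blue. Of all 78650 regions, 18.6% were higher and 18.1% lower in this sense. Lines at the top of every panel stay near the top in all libraries.

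In all, the limma test on ranks called 0 of the 71 shared regions of the 4 genes and 0 of the 78650 regions of the genome (0%). At an unadjusted p under 0.05 it had 2 of 71 and 6751 of 78650 (8.58%). Both KO libraries ranked above both WT libraries at 9 of 71 regions (12.7%) and below at 12 (16.9%), beside 18.6% and 18.1% of all shared regions. The median percentile difference was −2.07 points over the 71 regions and −0.046 over all shared regions.

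Peak widths of shared regions did not separate the genotypes as a whole. Over all shared regions the median width was 190, 236, 213 and 226 bp in WT 1, WT 2, KO 1 and KO 2. In the 4 genes the shared regions had medians of 200, 233, 227 and 234 bp, so WT 1 had the narrowest peaks in both. The summed widths of both KO libraries were above those of both WT libraries at 10 of 71 regions (14.1%) and below them at 14 (19.7%), beside 17.2% and 12.5% of all shared regions. The limma test on log2 width called 0 of 71 and 0 of 78650 (0%), with 5 of 71 and 3597 of 78650 (4.57%) at an unadjusted p under 0.05. The largest positive difference was at Satb1, 0.684 kb downstream of the gene at chr17:51735208-51735503, with 106, 176, 247 and 296 bp, or 0.99 ± 0.31 on the log2 scale (SE, limma adjusted p = 1). At this site the ranks went the other way, with percentiles of 39.9, 29.3, 8.69 and 27.4.

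The largest negative differences in width were of similar size at Bcl11b, Gata3 and Myb. At Bcl11b, 2.12 kb upstream of the gene body, chr12:108006266-108006453 had widths of 155, 188, 105 and 94 bp, a difference of −0.78 ± 0.18 on the log2 scale (SE, limma adjusted p = 1). At Gata3, 0.679 kb upstream of the listed start, chr2:9879279-9879893 had 517, 615, 241 and 438 bp, a difference of −0.80 ± 0.34 (SE, limma adjusted p = 1). At Myb it was chr10:21222686-21223010, 61.7 kb upstream, with 263, 318, 114 and 229 bp, and at Satb1 the site inside the gene given above. The largest positive difference at Bcl11b was inside the gene, chr12:107961101-107961336, with 105, 119, 226 and 134 bp. At Gata3 it was chr2:9823638-9824004, with 289, 313, 350 and 349 bp, and at Myb chr10:21128189-21128455, with 164, 212, 223 and 267 bp, both of which also ranked higher in both KO libraries. The gene medians of log2 width differed by −0.13, 0.06, 0.20 and 0.05 (KO minus WT) for Bcl11b, Gata3, Satb1 and Myb, with exact permutation p = 1, 1, 0.667 and 1.

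**Figure D4:**
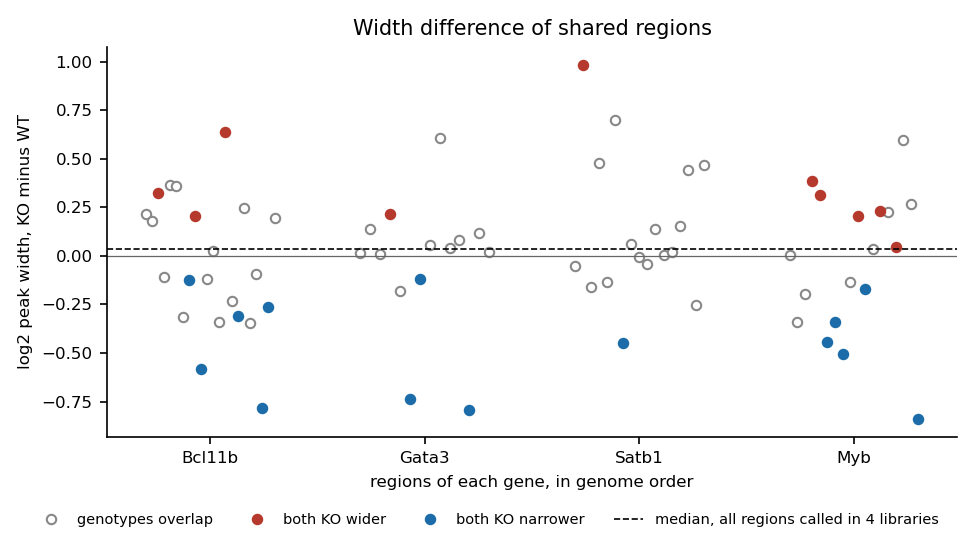
Difference in log2 summed peak width, KO minus WT (y axis), of each shared region, ordered along the genome within each gene (x axis). Red points are wider and blue points narrower in both KO libraries, open points overlap, and the dashed line is the median of all shared regions. Points lie on both sides of the line at every gene, from −0.84 to 0.99.

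Bcl11b, Gata3 and Satb1 stand beside gene deserts, and regions 100 to 1000 kb away whose nearest protein-coding gene was still one of them were read as an extension. There were 55 such regions at Bcl11b, 94 at Gata3, 46 at Satb1 and 0 at Myb. At Satb1 the distant regions that did not overlap between genotypes were higher in KO, while the 6 near ones were lower. The difference in median percentile of the near locus, 0.856, had the same sign as that of the distant regions. Of 18 distant regions called in all 4 libraries, 10 ranked higher in both KO libraries and 0 lower, that is 55.6% beside 22.7% of all shared regions in this distance range. Their mean was higher in KO at 15 of 18, and the median difference was 7.72 points. The median percentile of the 18 regions was 23.6, 34.3, 34.1 and 46.6. As 1 value per library, the genotypes thus overlapped (exact permutation p = 0.667). The largest difference was 380 kb upstream, chr17:52213032-52213334, with percentiles of 13.8, 13.7, 33.7 and 59.1, and the next 217 kb upstream, chr17:52050414-52050685, with 8.19, 7.50, 24.7 and 41.6. Neither passed the test (limma adjusted p = 0.408 and 0.388). A strong distant site, chr17:52162400-52163348, stood at 81.7, 80.7, 86.3 and 84.0, a difference of 3.94 points near the top of the ranking.

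Other ways of ranking changed these counts. With peaks of a −log10 q of at least 5, 1 near region was higher (7.69%) and 4 lower (30.8%) in KO, beside 18.2% and 17.8% of all near regions. The distant counts were then 4 (40%) and 0, beside 22.6% and 18.8%. With lists of equal length the near counts were 0 and 6 (42.9%), beside 18.1% in each direction, and the distant ones 7 (50%) and 0, beside 22.5% and 17.9%. With ranks by −log10 q they were 2 (11.8%) and 6 (35.3%) near, beside 20.8% and 20.7%, and 9 (50%) and 1 (5.56%) distant, beside 25.6% and 19%. With ranks among all peaks of a list they were 3 (17.6%) and 6 (35.3%) near, beside 20.8% and 13.4%, and 11 (61.1%) and 0 distant, beside 24.5% and 13.4%. With 1 library left out, 1 genotype is a single library and the shares over all regions rise. The share of distant Satb1 regions higher in KO was then 56.5% to 66.7%, beside 36.3% to 41.9% of all distant regions, and that of lower ones 5.56% to 17.4%, beside 30.6% to 33.9%. For near regions the share higher was 5.88% to 22.2%, beside 31.9% to 35.5%, and the share lower 50% to 56.2%, beside 31.9% to 39.5%. The difference between near and distant regions was noticed in these data and has no test of its own.

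**Figure D5:**
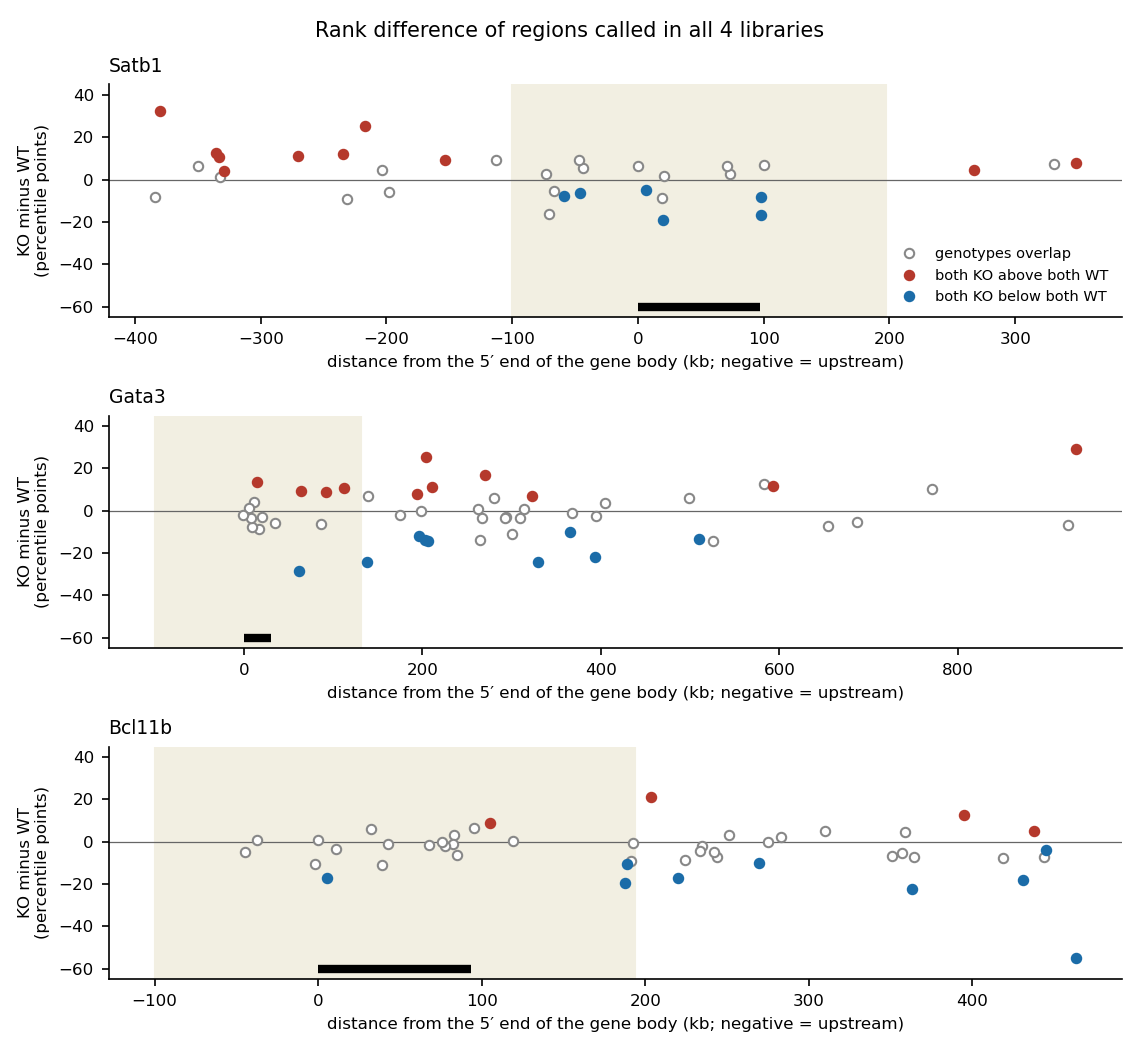
Percentile difference, KO minus WT (y axis, points), of regions called in all 4 libraries against distance from the 5′ end of the gene body (x axis, kb, negative upstream), for the 3 genes with regions beyond 100 kb. Shading marks the 100 kb range and the black bar the gene body. Around Satb1, 6 blue points (lower in both KO libraries) lie inside the shaded range and 10 red points (higher) outside it, while Gata3 and Bcl11b have both colours outside.

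In the Gata3 desert 8 of the 69 regions found in at least 2 libraries were WT-only (11.6%) and 1 was KO-only (1.45%). Over all regions at this distance from a protein-coding gene, 2.85% were WT-only and 6.42% KO-only. As background, a T cell enhancer of Gata3 is known far downstream of the gene in this desert. The 8 regions lay 136 to 669 kb downstream of the gene body. The strongest were chr2:9408497-9408786, 448 kb away, with −log10 q values of 7.30 (WT 1) and 31.6 (WT 2), and chr2:9592735-9592912, 264 kb away, with 11.5 and 17.7. With lists of equal length the counts were 9 (14.5%) and 1 (1.61%), beside 4.1% and 6.21%. With a −log10 q of at least 5 they were 6 (11.8%) and 3 (5.88%), beside 2.42% and 6.26%. Leaving out WT 1 gave 16 (26.7%) and 3 (5%), beside 21.9% and 8.16%, and leaving out WT 2 gave 9 (15%) and 11 (18.3%), beside 11.3% and 23.8%. Without KO 1 the counts were 10 (15.4%) and 8 (12.3%), beside 6.42% and 18.3%, and without KO 2 they were 13 (19.1%) and 12 (17.6%), beside 6.65% and 36.9%. In each of these settings the WT-only share of the desert was above that of all regions at this distance, and the KO-only share below it. The settings reuse the same libraries and are not independent of each other. The difference in counts has no test of its own. Of 37 shared regions there, 7 ranked higher (18.9%) and 8 lower (21.6%) in both KO libraries. Over all shared regions at this distance the shares were 22.7% and 17.7%. The mean was higher in KO at 16 of the 37 and lower at 21. Their median difference was −2.51 points, beside 0.80 over all shared regions at this distance. At chr2:9691628-9691748, 165 kb downstream, the percentiles were 17.8, 8.31, 0.978 and 0.668, a difference of −1.25 ± 0.26 normal score units (SE, limma adjusted p = 0.316).

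The distant regions of Bcl11b all lay on its downstream side within 387 kb. Of 39 called in at least 2 libraries, 1 was WT-only (2.56%) and 2 were KO-only (5.13%), beside 2.85% and 6.42% of all such regions at this distance. Of 24 shared regions 3 ranked higher (12.5%) and 6 lower (25%) in both KO libraries, beside 22.7% and 17.7%. One distant site had the largest rank difference of any region described here. At chr12:107540641-107540811, 370 kb downstream, percentiles were 56.7 and 81.8 in WT and 2.54 and 25.8 in KO, and peak widths were 145, 171, 85 and 109 bp. Both measures were lower in both KO libraries, with a rank difference of −1.84 ± 0.46 normal score units (SE, limma adjusted p = 0.364).

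Other genes of T lineage specification also had most of their recurrent sites in both genotypes. A list of 16 such genes had 572 regions, and all 4 libraries called 287 of them. Rag2, a recombinase gene beside Rag1, was nearest to none. Of 420 regions called in at least 2 libraries, 13 were WT-only (3.1%) and 22 KO-only (5.24%), beside 2.9% and 4.19% near all protein-coding genes. At Runx1, which encodes a factor of early T cells and had the most such regions of the list, 3 of 68 were WT-only and 7 KO-only. The counts were 2 and 3 of 45 at Lef1, 2 and 3 of 46 at Tcf12 and 1 and 3 of 44 at Ets1. They were 2 and 0 of 39 at Tox, and 0 and 0 of 22 at Tcf7, which encodes TCF1. Of the 287 shared regions 35 ranked higher in both KO libraries (12.2%) and 68 lower (23.7%), beside 18.6% and 18.1% of all shared regions, and the limma test called 0. The median percentile difference was −2.31 points over this list.

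A list of 12 progenitor and alternative-lineage genes was chosen as genes shut at commitment or restrained by such factors. Whether these factors act on them in these cells was not tested. Of its 221 regions called in at least 2 libraries, 4 were WT-only (1.81%) and 18 KO-only (8.14%). Near all protein-coding genes the shares were 2.9% and 4.19%. The KO-only regions of the list fell at 8 of the 12 genes. At Zbtb16, whose product PLZF directs innate-like lymphocytes, 5 of 49 were KO-only and 0 WT-only. At Kit, the stem cell factor receptor of progenitors, the counts were 4 and 1 of 26. At Spi1, Bcl11a and Hhex, factors of early progenitors, they were 1 and 0 each, of 10, 15 and 5 regions. Lmo2, Erg and Id2 had 2 KO-only and 1 WT-only each, of 15, 46 and 23 regions. Lyl1, Mycn, Nfil3 and Gfi1b had 0 of either kind. Other settings are not given for this list. Of its 135 shared regions 21 ranked higher (15.6%) and 27 lower (20%) in both KO libraries, beside the same 18.6% and 18.1%, the limma test called 0, and the median difference was 0.63 points.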

How the data were processed

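Omni-ATAC-seq libraries of WT and KO γδ thymocytes (n = 2 each) were used as deposited, 1 narrowPeak list per library. Tools listed in the submitters' processing notes, with no roles, are MACS2 2.1.1, Bowtie2 2.3.4.1, deepTools 3.1.2, Trim Galore, bedtools, cutadapt and Picard, and the builds are GRCm38 and mm10. Not given in the sources used here are the peak settings, the treatment of duplicates and any Tn5 shift. Per the deposited lists, each peak carries a fold enrichment, the ratio of summit signal to local background in its own library. The authors' −log10 p and −log10 q of the summit, and a score that equals 10 times the −log10 q without decimals, are likewise values within a library. These are the authors' values and were used only to rank or filter within a list.

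Regions, distances and ranks were computed in Python 3.11.15 with pandas 2.3.3, and tests in limma 3.58.1 (R 4.3.3), with Benjamini-Hochberg adjustment over all 78650 regions called in all 4 libraries. A region with several peaks took the highest fold and the summed width. Normal scores of within-library ranks and log2 widths were tested, KO minus WT, with code tested on simulated data. Gene medians were compared by exact permutation over libraries, 2-sided. Genes were placed by a RefSeq table of GRCm38.p6 with gene starts and ends but no exons, so exon and intron positions are not given. Named regions were those over a listed start, every WT-only and KO-only region, the 2 highest ranked per gene, and the largest rise and fall per gene in rank and width without overlap of genotypes. The 100 to 1000 kb regions named were chosen after their values were seen. The 4 genes and all lists were chosen with earlier results of these data known.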

Additional observations from a re-analysis of the deposited data

How the results depend on the processing

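Under every alternative the limma tests called 0 regions of the 4 genes for rank and for width, and the smallest adjusted p of a member was 0.246 for rank and 0.364 for width. Quantile-normalised fold enrichment gave 42 calls over the genome, 0 of them at these genes. The number of WT-only regions (7, 5.88% beside 2.9% near all protein-coding genes) was 1 with a −log10 q of at least 5 (1.19% beside 2.25%), 2 with lists of equal length (2.04% beside 4.06%) and 17 within 1000 kb (6.51% beside 2.89%). That of KO-only regions (2, 1.68% beside 4.19%) was 1 within 20 kb (1.33% beside 4.04%) and 7 within 1000 kb (2.68% beside 4.33%). With 1 library left out, WT-only counts ran from 9 to 30 and KO-only counts from 5 to 21, and the shares near all genes rose too. In the order WT 1, WT 2, KO 1 and KO 2 left out, WT-only shares were 27.5%, 15.2%, 8.33% and 15.9%, beside 17.2%, 8.52%, 6.12% and 6.21%. KO-only shares were 4.59%, 13.3%, 16.7% and 18.6%, beside 5.74%, 16.6%, 13.1% and 19.5%.

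The difference in median percentile at Gata3 was 4.74 with a −log10 q of at least 5, 7.19 with equal lists, −7.96 within 20 kb, and −6.42 to 3.07 with 1 library left out. At Satb1 it was −8.83 within 20 kb and −4.60 to 3.74 with 1 library left out. At Myb it was 0.476 when peaks had to cover 0.5 of a region, −0.0976 with ranks among all peaks of a list, and −6.68 to −1.27 with 1 library left out. At Bcl11b it stayed below 0 with each library left out, from −10.8 to −0.718, while the width difference there ran from −0.280 to 0.157.

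Whether equal replicate numbers pair the libraries is not stated, and deviations of same-numbered libraries correlated at 0.106 for rank and 0.057 for width. With the replicate number as a block, 0 regions of the 4 genes were called for rank or width (lowest adjusted p 0.287 and 0.880). With 2 libraries a genotype and no read counts, small differences in accessibility were not detectable.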

Other observations

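The summit positions of the shared sites of Bcl11b, Gata3, Satb1 and Myb were close in all libraries. Of the 71 regions called in all 4 libraries, 70 had at least 1 base covered by a peak of every library, and in 61 the 4 summits lay within 100 bp of each other, with a median spread of 44 bp. The exception without a common base was chr17:51899529-51899934, 66.2 kb upstream of Satb1. Regions called in a single library numbered 9 in WT 1, 22 in WT 2, 18 in KO 1 and 16 in KO 2. Regions missing from a single library numbered 10 for WT 1, 3 for WT 2, 10 for KO 1 and 2 for KO 2.

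The genes differed in where their sites lay. At Bcl11b 42 of 65 regions lay inside the gene body, at Gata3 21 of 38 lay downstream, and at Myb 22 of 41 lay upstream, 6.59 to 66.1 kb from the gene body. Satb1 had 18 regions inside and 16 upstream, of which the nearest upstream one stood 20.7 kb from the gene.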
